A study of Oryza sativa with 14 samples.

Results

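Of the 5 rice genes described here, 4 carry iron or iron chelates across membranes and the remaining one regulates the response to iron shortage. They are the iron transporters IRT1 and IRT2, the yellow stripe-like (YSL) transporters YSL15 and YSL16, and the transcription factor IRO3. The genes were chosen by symbol or synonym in the annotation of the array and were matched to LOC4333669, LOC4333667, LOC9268232, LOC4336546 (listed as osysl16) and LOC4332972 in the order named. They are 5 of the 17905 genes that had a probe set of their own, and each was read by 1 of the 57258 probe sets used. The entry matched to IRO3 has LOC4332972 as its symbol and lists IRO3, BHLH063, OsbHLH063 and OsIRO2 among its synonyms. OsIRO2 is a name used for another regulator, so the identity of this probe set is uncertain. In the rice gene table of assembly ASM3414082v1, IRT1 and IRT2 are near neighbours with 1 coding gene between them.

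Dark-grown rice seedlings were divided into root and shoot, and their RNA was hybridised to 14 one-colour Affymetrix rice arrays, 1 for each combination of genotype, tissue and gas. The root groups were mhz1, mhz4, mhz5 and wild type (WT), each in ethylene and in air, and the shoot groups were mhz4, mhz5 and WT, each in ethylene and in air. Seedlings of all groups are labelled as 3 days old, and those in ethylene received 10 ppm of the gas for 8 h at 28 °C in darkness, with the water lowered to 1.5 to 1.7 cm below the seeds, per the labels' protocols. All seeds had germinated for 2 days at 37 °C without light. For the air groups the labels give no duration, temperature or water level, so these cannot be told apart from the gas. All 3 mutants came from a search for seedlings with changed ethylene responses. From published work, the product of MHZ1 is a histidine kinase, that of MHZ4 is needed for abscisic acid synthesis in the chloroplast, and that of MHZ5 is a carotenoid isomerase upstream of the same hormone. The allele of each mutant and the number of seedlings per array are not given in the labels. Both WT root titles, and no others, contain the unexplained letters mb, so in roots any mutant is set against WT arrays that differ in this mark too.

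Rice takes up iron in a pair of ways. Like other grasses it secretes phytosiderophores of the mugineic acid family, made from methionine by way of nicotianamine, and brings the iron chelate into the root through YSL transporters. It also takes up free ferrous iron through IRT transporters of the ZIP family, and bHLH transcription factors adjust both routes when iron is scarce.

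Signals below are the deposited intensities after each array was brought to a trimmed mean of 500, and differences are those of log2(signal + 32), a scale on which changes of dim probe sets come out too small. Levels of different genes are not compared, since probe sets differ in brightness. All 5 genes were among the 23186 probe sets tested, those that reached a signal of 200 on 2 or more arrays. YSL16 and IRO3 reached 200 on all 14 arrays, IRT1 and YSL15 on 11 and IRT2 on 10. The tissue labels were checked on marker genes. The summed signal of 5 root markers was 26570 to 46730 on root arrays and 1429 to 1917 on shoot arrays. That of 5 shoot markers was 1978 to 3795 on root arrays and 78110 to 111700 on shoot arrays. Among root arrays it was highest in mhz4 in ethylene, where RBCS read 1528, against 115.8 to 192.9 on the other root arrays, and CAB2R 463.3. Shoot tissue in that array was not tested. GLO1 did not separate the tissues, at 1498 to 1846 in roots and 1494 to 1980 in shoots. All 8 seed storage and endosperm markers together read 3967 to 4858 in roots and 3842 to 6638 in shoots, and 2 of the 8, GLB1 and GLUA2, reached 200 on every array.

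IRT1, a plasma membrane transporter of ferrous iron, had its highest signal in mhz5 roots in ethylene. In roots its signal in ethylene against air was 1372 against 839.9 in mhz1, 1617 against 1522 in mhz4, 6869 against 703.2 in mhz5 and 945.1 against 650.9 in WT. In shoots it was 197.3 against 166.2 in mhz4, 3977 against 2325 in mhz5 and 223.9 against 113.2 in WT. The mhz5 root array in ethylene stood 9.77-fold above its air partner, while the ranges of the root arrays in the 2 gases overlapped. Both mhz5 shoot arrays stood far above the other 4 shoot arrays, of which only WT in ethylene reached 200, and the highest shoot array exceeded the lowest 35.1-fold.

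IRT2, the paralog of IRT1 and likewise a ferrous iron transporter, was higher in ethylene than in air in every one of the 7 genotype and tissue pairs. Its root signals in ethylene against air were 336.9 against 182.9 in mhz1, 729.2 against 269.8 in mhz4, 1899 against 392.4 in mhz5 and 606.2 against 166 in WT. The shoot values were 241.1 against 37.01 in mhz4, 971.7 against 426.5 in mhz5 and 424.3 against 56.49 in WT. The mhz5 arrays were the highest of their gas in both tissues, and the gas ranges overlapped in roots and in shoots through them and, in roots, through mhz1 in ethylene. The air shoots of mhz4 and WT were well under 200, so the size of their difference from ethylene depends on the constant added before the logarithm.

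YSL15, which brings ferric phytosiderophore into rice roots, had far higher signals in roots than in shoots. Its root signals in ethylene against air were 4717 against 1168 in mhz1, 7224 against 2874 in mhz4, 13490 against 6368 in mhz5 and 5203 against 1498 in WT. All 4 genotypes were higher in ethylene, and the ranges overlapped because mhz5 roots in air stood above mhz1 and WT roots in ethylene. Shoots read 158.3 in ethylene against 155.4 in air in mhz4, 1468 against 735.9 in mhz5 and 172.5 against 216.3 in WT. The mhz4 and WT shoots lay at or below about 200 in both gases, and only the mhz5 shoots stood clear of that level.

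YSL16, a transporter of metal chelates inside the plant, was higher in ethylene in roots and varied little among shoots. Root signals in ethylene against air were 2136 against 743 in mhz1, 2521 against 1246 in mhz4, 3877 against 1732 in mhz5 and 2561 against 824.1 in WT. The lowest root array in ethylene (2136, mhz1) was above the highest in air (1732, mhz5), and YSL16 was the 1 gene of the 5 whose root ranges in the 2 gases did not overlap. The share of all probe sets with separate root ranges was not counted, and in shoots the YSL16 ranges overlapped. Shoots ranged narrowly, with 1438 in ethylene against 1352 in air in mhz4, 1729 against 1247 in mhz5 and 1577 against 1570 in WT. The highest root array exceeded the lowest 5.22-fold, against 1.39-fold among the shoot arrays.

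IRO3, a bHLH factor known in rice as a repressor of iron-deficiency genes, stood out in mhz5. In roots the signals in ethylene against air were 1097 against 611.6 in mhz1, 1607 against 1132 in mhz4, 3151 against 2217 in mhz5 and 1439 against 589.4 in WT. In shoots they were 1743 against 1335 in mhz4, 5309 against 4030 in mhz5 and 1666 against 759.8 in WT. Both mhz5 arrays exceeded all other arrays of their tissue, and within each of the 7 pairs the ethylene array was the higher one.

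**Figure D1:**
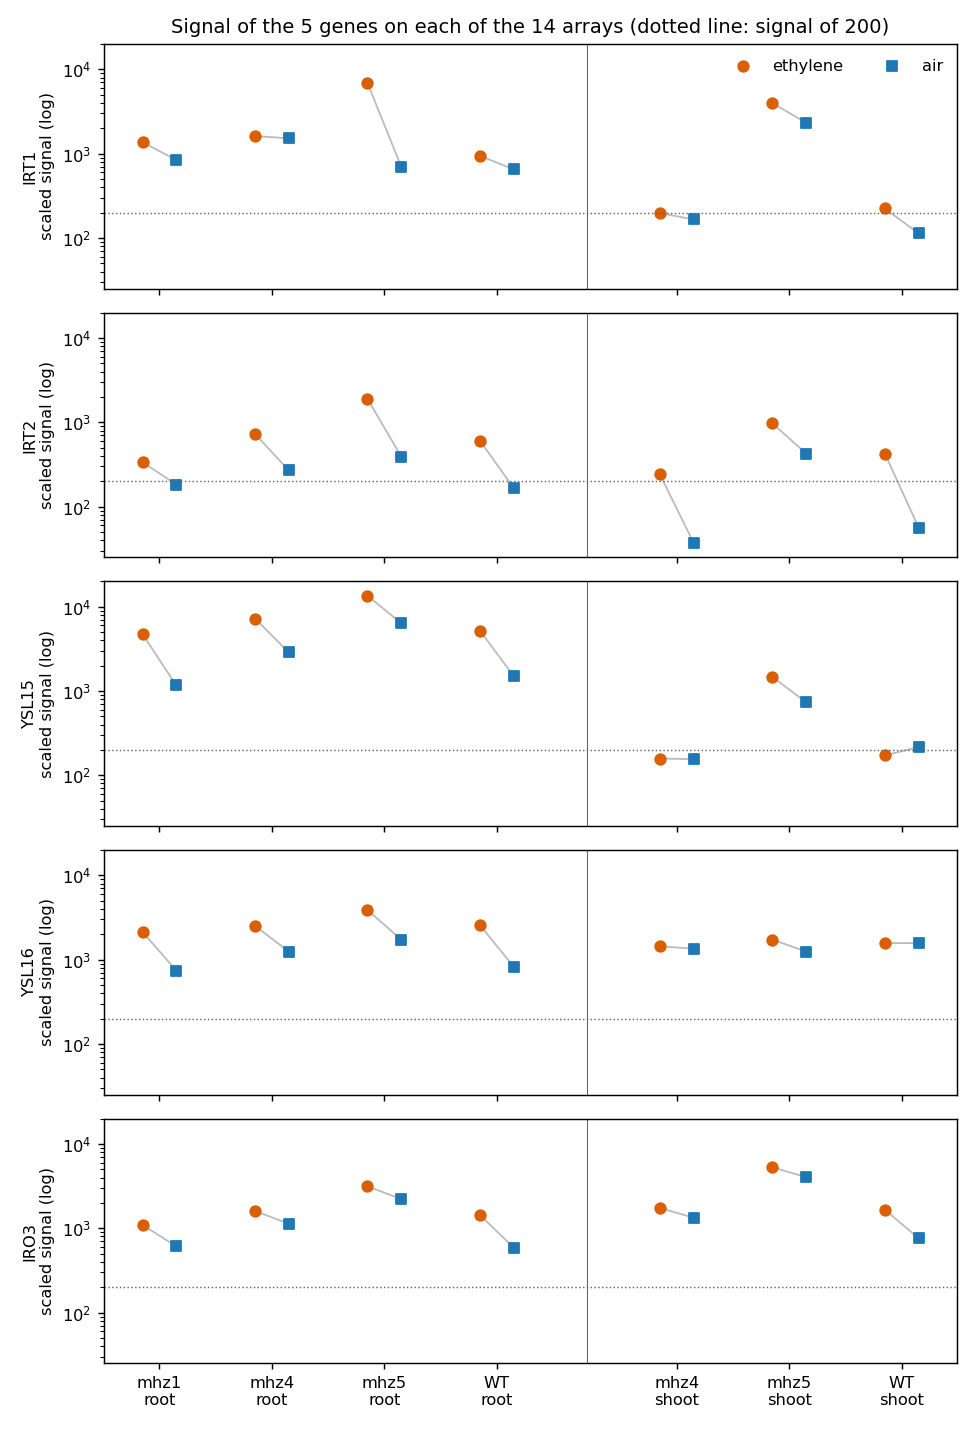
Scaled signal of each gene on the 14 arrays (log axis, arbitrary units), with the ethylene array (circle) left of the air array (square) of each genotype and a line joining the pair; 1 array per point, so there are no error bars. For every gene the highest root array was mhz5 in ethylene and the highest shoot array was mhz5 in ethylene, and YSL16 varied little among shoots.

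IRT2, YSL15, YSL16 and IRO3 rose in roots in ethylene. With the 4 genotypes as replicates, the mean difference from air was 1.50 (SE 0.243, limma adjusted p = 0.0111) for IRT2, 1.54 (SE 0.207, adjusted p = 0.00501) for YSL15, 1.31 (SE 0.113, adjusted p = 0.000761) for YSL16 and 0.76 (SE 0.153, adjusted p = 0.0275) for IRO3. So 4 of the 5 genes rose, against 2.32% of all probe sets tested, and the median of the 5 was 1.31 against 0.005 for all probe sets. IRT1 was higher in ethylene in 4 of 4 genotypes but did not pass, with a mean of 1.13 (SE 0.437, adjusted p = 0.233) that was 0.43 without the mhz5 root arrays. Its differences by genotype were 0.69 in mhz1, 0.09 in mhz4, 3.23 in mhz5 and 0.52 in WT. For the other genes the differences of the genotypes lay closer together, at 0.78 to 2.19 for IRT2, 1.08 to 1.98 for YSL15, 1 to 1.60 for YSL16 and 0.49 to 1.24 for IRO3. Taken pair by pair, with no test, 2 of the 5 genes were at least 2-fold higher in ethylene on the log2(signal + 32) scale in mhz1 roots (against 1.05% of the probe sets compared), 2 in mhz4 roots (1.14%), 4 in mhz5 roots (0.854%) and 4 in WT roots (1.56%). In mhz4 roots YSL16 lay just under that bound, with a ratio of 2.02 between the signals themselves.

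The response of each genotype was then tested against that of the other genotypes of its tissue, with 1 more ethylene term in the fit for each of the 7 pairs in turn, a test added after seeing the data. The response under test comes from 1 array per gas, so no spread between arrays of that response enters the SE. A true response and a deviating single array cannot be told apart. For IRT1 the ethylene effect was larger in mhz5 roots than in the other roots, by 2.80 (SE 0.298, limma adjusted p = 0.0358), a call made for 0.108% of all probe sets. Over the 18 settings that left out arrays the values were 2.63 to 2.93, with a limma adjusted p of 0.118 without the mhz5 shoot arrays. The call held in 3 of the 18, without the mhz4 root pair or 1 array of it, which are near repeats of 1 setting. It was also lost with a pseudocount of 1 (adjusted p = 0.0558), without the variance trend (0.061) and with the root arrays alone (0.257). None of the other 4 genes passed in mhz5 roots, where IRT2 differed by 0.92 (95% interval -0.21 to 2.05) and YSL15 by -0.61 (-1.66 to 0.43). For the other 6 pairs none of the 5 genes passed by limma, against 0 to 0.0992% of probe sets, and 2 values had an unadjusted p under 0.05, YSL15 in mhz5 shoots (1.09) and IRO3 in WT shoots (0.71).

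The p-values measure the spread between genotypes, pooled over roots and shoots, and not between replicate seedlings. IRT2, YSL15 and YSL16 passed whichever array or genotype was left out (21 settings each). Many of these settings are near repeats, as an array whose partner is left out no longer informs the ethylene difference. IRO3 did not pass without the mhz1 root arrays (0.75, limma adjusted p = 0.121) or without the WT root arrays (0.60, adjusted p = 0.0885). The summed signal of the 5 root markers was also higher in ethylene in every genotype. It was 40980 against 27670 in air in mhz1, 46730 against 41680 in mhz4, 44500 against 39660 in mhz5 and 41650 against 26570 in WT. LSI1, LSI2 and AMT1-2 were higher in every genotype. SHR1 was lower in ethylene in mhz4 (315.5 against 379.2) and mhz5 (335.1 against 375), and PHO1-2 in mhz5 (5112 against 5151). By limma 1 of the 5 markers was higher, against 2.32% of all probe sets. The part of these markers in the result was not tested. In whole organs, more cells of a type and more RNA per cell cannot be told apart.

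In shoots, IRT2 rose in ethylene, by 1.83 on average over 3 genotypes (SE 0.28, limma adjusted p = 0.0168), the 1 gene of the 5 that passed, against 0.802% of all probe sets. Its differences were 1.98 in mhz4, 1.13 in mhz5 and 2.37 in WT. The call was lost without the mhz4 shoot arrays (1.75, adjusted p = 0.113) or the WT shoot arrays (1.56, adjusted p = 0.0537). IRO3 was higher in 3 of 3 genotypes with a mean of 0.62 (limma adjusted p = 0.126), and IRT1 in 3 of 3 with 0.60 (adjusted p = 0.61). For IRT1 the shoot differences were 0.21 in mhz4, 0.77 in mhz5 and 0.82 in WT. Its SE of 0.505 also carries the root pairs, whose differences ran from 0.09 in mhz4 to 3.23 in mhz5. With other processing settings its adjusted p was 0.163 at the lowest. YSL15 averaged 0.24 (95% interval -0.31 to 0.78), with 0.97 in mhz5, 0.02 in mhz4 and -0.28 in WT. YSL16 averaged 0.19 (95% interval -0.11 to 0.48). Pair by pair on the same scale, 1 of the 5 was at least 2-fold higher in mhz4 shoots (against 0.642% of the probe sets compared), 1 in mhz5 shoots (0.764%) and 2 in WT shoots (1%).

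For YSL16 alone among the 5, the ethylene effect differed between the tissues, by 1.12 (roots minus shoots, SE 0.172, limma adjusted p = 0.0368), where 0.272% of probe sets had a larger effect in roots. Over the 21 settings that left out arrays the values were 1.02 to 1.26, with a limma adjusted p of 0.169 without the mhz4 shoot arrays. The call held in 3 of the 21, without the mhz4 root pair or 1 array of it, which are near repeats of 1 setting. For YSL15 the difference was similar in size but more variable, 1.30 (95% interval 0.58 to 2.03, adjusted p = 0.166). The other differences between tissues were 0.53 for IRT1 (95% interval -1 to 2.06), -0.33 for IRT2 (-1.18 to 0.52) and 0.14 for IRO3 (-0.40 to 0.67).

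**Figure D2:**
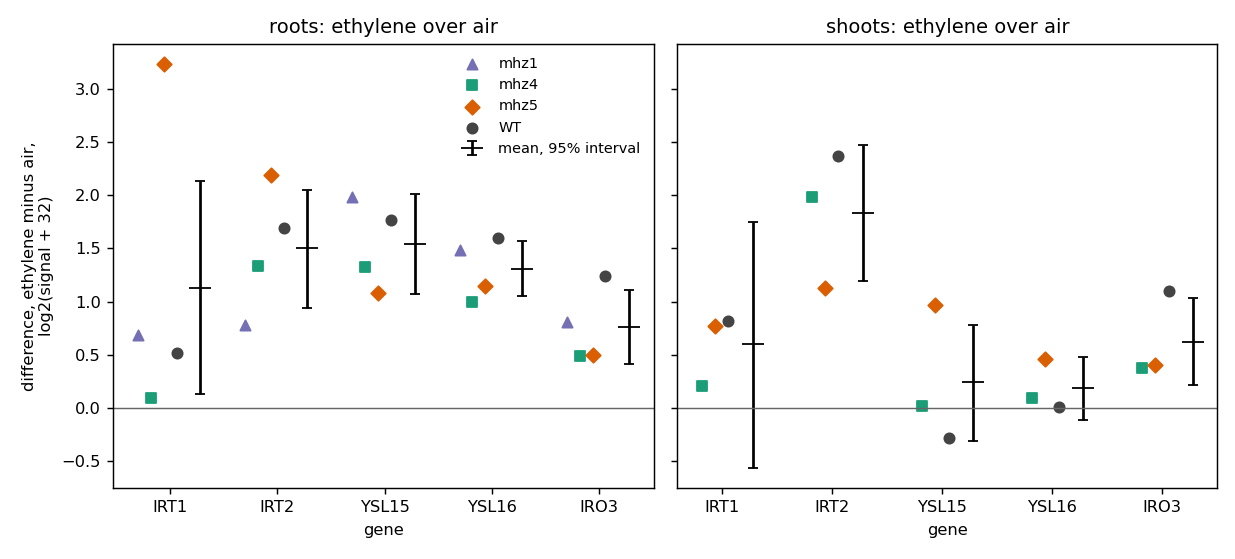
Difference between the ethylene and the air array of each genotype on the log2(signal + 32) scale, in roots (left) and shoots (right), with the mean over genotypes and its 95% interval from the limma fit in black. In roots the YSL16 points lie between 1 and 1.60 and the IRT1 mhz5 point lies apart at 3.23; in shoots the IRT2 interval is the only one, besides that of IRO3, that lies wholly above 0.

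The genotypes were then set beside WT, with the 2 gases of a genotype as its replicates and the same WT arrays as the reference of every mutant. A gene has the same SE in each of these comparisons, as its spread is pooled over all genotypes and both tissues. That SE does not measure the spread between replicate seedlings of a genotype. In mhz5 roots, IRT2, YSL15, YSL16 and IRO3 were higher than in WT roots. The means were 1.35 for IRT2 (SE 0.343, limma adjusted p = 0.0453), 1.72 for YSL15 (SE 0.293, adjusted p = 0.0115), 0.82 for YSL16 (SE 0.159, adjusted p = 0.0182) and 1.48 for IRO3 (SE 0.217, adjusted p = 0.00622). That is 4 of 5 genes, against 4.35% of all probe sets. For YSL15, YSL16 and IRO3 the ratio of mhz5 to WT was smaller in ethylene than in air, at 2.59 against 4.25 for YSL15, 1.51 against 2.1 for YSL16 and 2.19 against 3.76 for IRO3. For IRT2 it was larger in ethylene, 3.13 against 2.36 in air.

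IRT1 in mhz5 roots was far above WT in ethylene and close to it in air. It read 6869 in mhz5 against 945.1 in WT in ethylene, a ratio of 7.27, and 703.2 against 650.9 in air, a ratio of 1.08. Its mean of 1.46 (SE 0.618, limma adjusted p = 0.174) rested on the ethylene array, since it was 0.06 without that array and 2.86 (adjusted p = 0.00185) without the mhz5 root air array. Without that air array the calls of the other 4 were lost as well (YSL15 1.41, adjusted p = 0.0857; YSL16 0.71, adjusted p = 0.127; IRO3 1.31, adjusted p = 0.0509; IRT2 1.81, adjusted p = 0.0524). With the WT root air array left out, YSL15 (1.56, adjusted p = 0.0929), YSL16 (0.62, adjusted p = 0.155) and IRT2 (1.22, adjusted p = 0.251) no longer passed. IRT2 was lost in 10 of 19 such settings, also without either array of mhz4 roots or shoots or the WT root ethylene array, and its mean was 0.89 (adjusted p = 0.202) without the mhz5 root ethylene array. The root markers summed to 44500 and 39660 in mhz5 roots in ethylene and in air, against 41650 and 26570 in WT roots. By limma 0 of these 5 markers passed for mhz5 over WT in roots, where 4.35% of all probe sets were higher and 5.22% lower.

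For every gene but YSL16, the mhz5 shoots showed the largest mean difference among the 5 comparisons of a mutant with WT. IRT1 read 3977 in mhz5 shoots against 223.9 in WT shoots in ethylene and 2325 against 113.2 in air, ratios of 17.8 and 20.5. YSL15 stood 8.51-fold above WT in ethylene and 3.40-fold in air, and IRO3 3.19-fold and 5.30-fold. IRT2 was 2.29-fold higher in ethylene and 7.55-fold higher in air, where WT read 56.49. In the fit the differences were 4 for IRT1 (SE 0.618, limma adjusted p = 0.00634), 1.76 for IRT2 (SE 0.343, adjusted p = 0.0138), 2.25 for YSL15 (SE 0.293, adjusted p = 0.00349) and 2.01 for IRO3 (SE 0.217, adjusted p = 0.00168). Again 4 of the 5 genes rose, against 9.35% of all probe sets.

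YSL16 was the exception in mhz5 shoots, with 1729 in mhz5 against 1577 in WT in ethylene, 1247 against 1570 in air and a mean difference of -0.10 (95% interval -0.46 to 0.27). The difference between mhz5 and WT was larger in roots than in shoots for YSL16, by 0.92 (SE 0.225, limma adjusted p = 0.0389, against 5.54% of probe sets). That contrast was added after seeing the data, and it held in 6 of 17 settings that left out arrays, with values of 0.71 to 1.12 and adjusted p up to 0.143. For IRT1 the same contrast was -2.53 (95% interval -4.53 to -0.53, adjusted p = 0.0938). It did not pass for IRT2 (-0.41, 95% interval -1.52 to 0.71), YSL15 (-0.54, -1.48 to 0.41) or IRO3 (-0.52, -1.22 to 0.18) either.

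The shoot calls of YSL15 and IRO3 held in all 19 settings that left out arrays. Those of IRT1 and IRT2 were lost without the mhz5 shoot air array (4.12, adjusted p = 0.0564 and 1.23, adjusted p = 0.125) and without the WT shoot air array (3.83, adjusted p = 0.0676 and 1.35, adjusted p = 0.134). Root markers were read beside these shoot values. The 5 root markers summed to 1429 and 1756 in mhz5 shoots in ethylene and in air and to 1621 and 1447 in WT shoots, with 2 of 5, LSI1 and PHO1-2, at 200 or more on each of these arrays. PHO1-2 was higher in mhz5 shoots, at 673.1 and 688.2 against 587 and 461 in WT shoots (0.37, limma adjusted p = 0.0367), and the other 4 root markers differed by -0.21 to 0.13 and did not pass. LSI2 read 18.57 and 17.72 in mhz5 shoots in ethylene and in air, against 28.58 and 20.36 in WT shoots. The 8 seed markers summed to 5180 and 5236 in mhz5 shoots, against 4419 and 3842 in WT shoots, and GLB1 among them was higher (0.32, adjusted p = 0.048), while GLUA2, the other seed marker tested, did not pass (0.47, adjusted p = 0.0787). The part of root and seed tissue in these results was not tested.

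In mhz4 none of the 5 genes passed in either tissue, while 14.8% of all probe sets did in roots and 26.3% in shoots. The root differences were 0.97 for IRT1, 0.43 for IRT2, 0.70 for YSL15, 0.28 for YSL16 and 0.53 for IRO3, with limma adjusted p of 0.136 to 0.434, and 2 of the 5 had an unadjusted p under 0.05. The shoot differences were 0.15 for IRT1, -0.55 for IRT2, -0.25 for YSL15, -0.17 for YSL16 and 0.43 for IRO3, and 0 of the 5 had an unadjusted p under 0.05. Leaving out the mhz5 root arrays brought IRT1 in mhz4 roots past the threshold (0.97, adjusted p = 0.0153), and leaving out the WT shoot ethylene array did so for IRO3 in mhz4 shoots (0.78, adjusted p = 0.0432). The ratio of mhz4 to WT roots was 1.71 in ethylene and 2.34 in air for IRT1, 1.39 and 1.92 for YSL15, and 1.12 and 1.92 for IRO3.

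In mhz1 roots the 5 genes lay near WT, with 0.44 for IRT1, -0.34 for IRT2, -0.25 for YSL15, -0.20 for YSL16 and -0.17 for IRO3. None of the 5 passed (limma adjusted p of 0.585 to 0.783, and 0 with an unadjusted p under 0.05), against 1.25% of all probe sets. The 95% intervals still allow sizeable differences, such as -0.98 to 1.85 for IRT1 and -1.12 to 0.45 for IRT2.

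Between the mutants themselves, mhz5 shoots exceeded mhz4 shoots by 3.85 for IRT1 (limma adjusted p = 0.0262), 2.30 for IRT2 (adjusted p = 0.0193), 2.51 for YSL15 (adjusted p = 0.00561) and 1.58 for IRO3 (adjusted p = 0.0135). These are 4 of 5 genes, against 0.772% of all probe sets, in a contrast added after seeing the data. YSL16 differed by 0.07 (95% interval -0.29 to 0.44). With the shoot arrays alone in the fit, IRT2 (adjusted p = 0.0581) and IRO3 (adjusted p = 0.0563) no longer passed. Leaving out either mhz4 shoot array or the mhz5 shoot ethylene array ended all 4 calls, and leaving out the mhz5 shoot air array ended those of IRT1, IRT2 and IRO3. Without the mhz1 root arrays IRT1 was lost as well. In roots none of the 5 passed (0.49 to 1.02, limma, 4 with an unadjusted p under 0.05), against 0.259% of all probe sets.

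**Figure D3:**
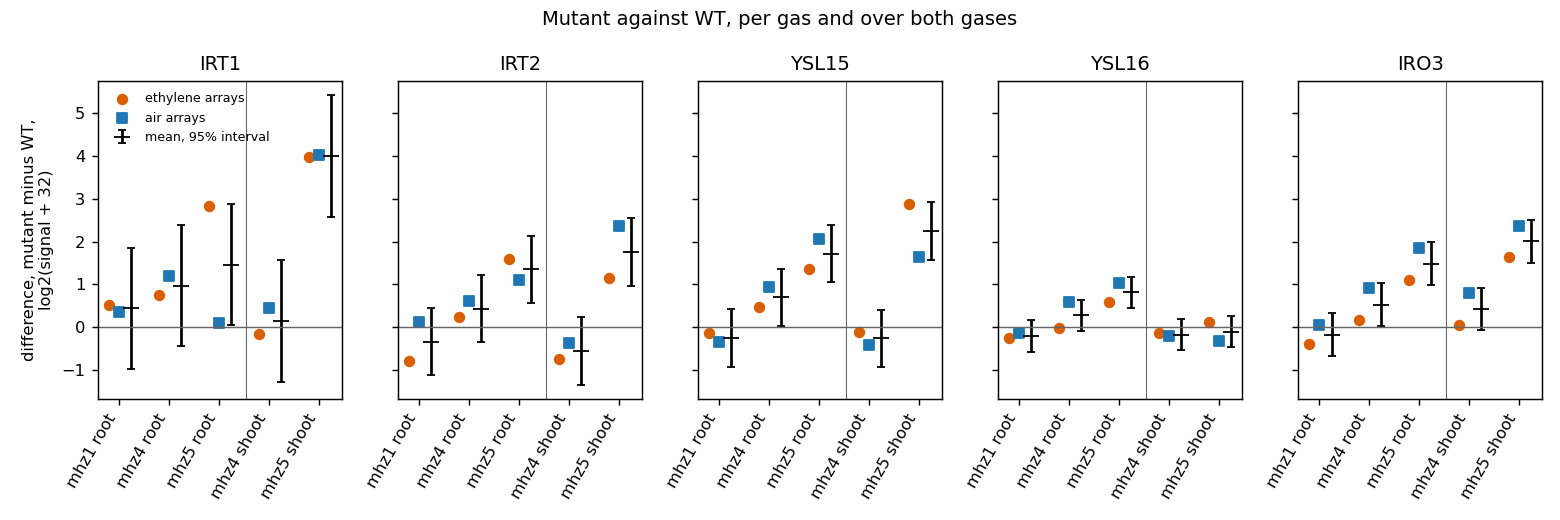
Difference between each mutant and WT on the log2(signal + 32) scale for the ethylene arrays (circle) and the air arrays (square), with the mean over both gases and its 95% interval from the limma fit; root comparisons stand left of the vertical line and shoot comparisons right of it. The mhz5 shoot points of IRT1 lie at 3.97 and 4.02, its mhz5 root points lie at 2.82 and 0.11, and the mhz5 shoot points of YSL16 lie on both sides of 0.

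Roots and shoots differed for all 5 genes. Over mhz4, mhz5 and WT, YSL15 was 3.79 higher in roots (SE 0.169, limma adjusted p = 6.68e-08), IRT1 1.51 (SE 0.357, adjusted p = 0.00365), IRT2 1.01 (SE 0.198, adjusted p = 0.00123) and YSL16 0.35 (SE 0.092, adjusted p = 0.00695). IRO3 was lower in roots, by -0.42 (SE 0.125, adjusted p = 0.0128), a call lost without the mhz4 shoot air array (-0.36, adjusted p = 0.0502) or the mhz5 shoot air array (-0.36, adjusted p = 0.051). As 49.9% of all probe sets were higher and 32.4% lower in roots, the count of members is close to the background. For IRT1 the tissue order was not the same in every genotype, since mhz5 roots in air (703.2) read below mhz5 shoots in air (2325). IRT2 also read lower in mhz5 roots in air (392.4) than in mhz5 shoots in air (426.5). In air YSL16 read lower in roots than in shoots in WT (824.1 against 1570) and in mhz4 (1246 against 1352). It read higher in roots in mhz5 in air (1732 against 1247) and in ethylene in WT, mhz4 and mhz5.

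Of other iron and metal genes, 40 had a probe set of their own and 32 were tested. Of these 32, 12 rose and 2 fell in roots in ethylene, against 2.32% and 2.59% of all probe sets, with a median difference of 0.28 against 0.01. In shoots 3 rose and 1 fell, against 0.802% and 1.41% of all probe sets, with a median of 0. The number that rose in roots was 2 without the WT root arrays and at most 12 with any array left out.

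Of 9 genes of phytosiderophore synthesis and efflux, 5 rose in roots in ethylene, against 2.32% of all probe sets: IDI1 (1.17), the nicotianamine aminotransferase NAAT1 (1.03), the nicotianamine synthase NAS3 (0.90), IDI2 of methionine recycling (0.79) and the S-adenosylmethionine synthetase SAMS2 (0.29). The limma adjusted p of these lay between 0.00897 and 0.0418. The nicotianamine synthases NAS1 (0.61, adjusted p = 0.546) and NAS2 (0.43, adjusted p = 0.604) did not pass. Neither did the entries named TOM1 (0.07) and TOM2 (0.09), listed as efflux transporters. In ethylene and in air TOM1 read 10660 and 9682 in WT roots and 8713 and 9119 in WT shoots. TOM2 read 886.3 and 845.1 in WT roots and 679.1 and 579.9 in WT shoots. Both count among the 9 by name, without a sequence check, so their identity is uncertain. NAS1 read 37700 in ethylene against 18550 in air in WT roots. In shoots 2 of the 9 rose, IDI1 (1.47) and NAAT1 (1.35), against 0.802% of all probe sets, where YSL15 and YSL16 did not pass. The entry named IDI1 also carries synonyms of a heat shock factor, so its identity is uncertain.

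In their own family, 2 of the 6 other YSL genes rose in roots, YSL9 (0.76, limma adjusted p = 0.0142) and YSL6 (0.27, adjusted p = 0.0364). YSL9 is the direct neighbour of YSL16 in the gene table, and its root signal in WT was 2109 in ethylene against 992.2 in air. Among the 7 other ZIP genes, relatives of IRT1 and IRT2 that carry mainly zinc, ZIP1 (0.71), ZIP5 (0.51), ZIP7 (0.45) and ZIP4 (0.43) rose in roots. ZIP4 fell in shoots by -0.88 (adjusted p = 0.00524), and its effect differed between roots and shoots by 1.31 (adjusted p = 0.00637). Of 9 other metal transport genes, the transporter NRAMP1 rose in roots (0.68, adjusted p = 0.016) and in shoots (0.93, adjusted p = 0.0151). The vacuolar iron transporters VIT1 (-0.31, adjusted p = 0.02) and VIT2 (-1.12, adjusted p = 0.0227) fell in roots. IDEF1, the other regulator tested, differed by 0.11 in roots (adjusted p = 0.59).

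Against WT, 7 of the 32 other genes were higher in mhz5 roots (median 0.31), against 4.35% of all probe sets. In mhz5 shoots 14 were higher and 1 lower (median 0.41), against 9.35% and 8.61%. In mhz4 roots 5 were higher and 4 lower, against 6.69% and 8.16%, and in mhz4 shoots 9 were higher and 2 lower, against 12.6% and 13.7%. In mhz1 roots 1 was higher, against 0.824%. In mhz5 shoots NAAT1 read 17690 in ethylene and 11640 in air, against 2106 and 446.8 in WT shoots, a difference of 3.83 (limma adjusted p = 0.000754). NAS1 (4.16, adjusted p = 0.00435) and NAS2 (4.21, adjusted p = 0.00181) were of the same order as IRT1. NRAMP1 was higher by 2.87 (adjusted p = 0.000127), and YSL9 (1.45) and YSL13 (1.26) were higher where YSL16 was not. VIT2 was lower, by -1.32 (adjusted p = 0.0232). The counts in mhz5 changed when arrays were left out. They were lowest without the WT air array of roots and without the mhz5 air array of shoots. In both settings far fewer of all probe sets were called too, and 1 genotype was left with 1 array in that tissue.

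**Figure D4:**
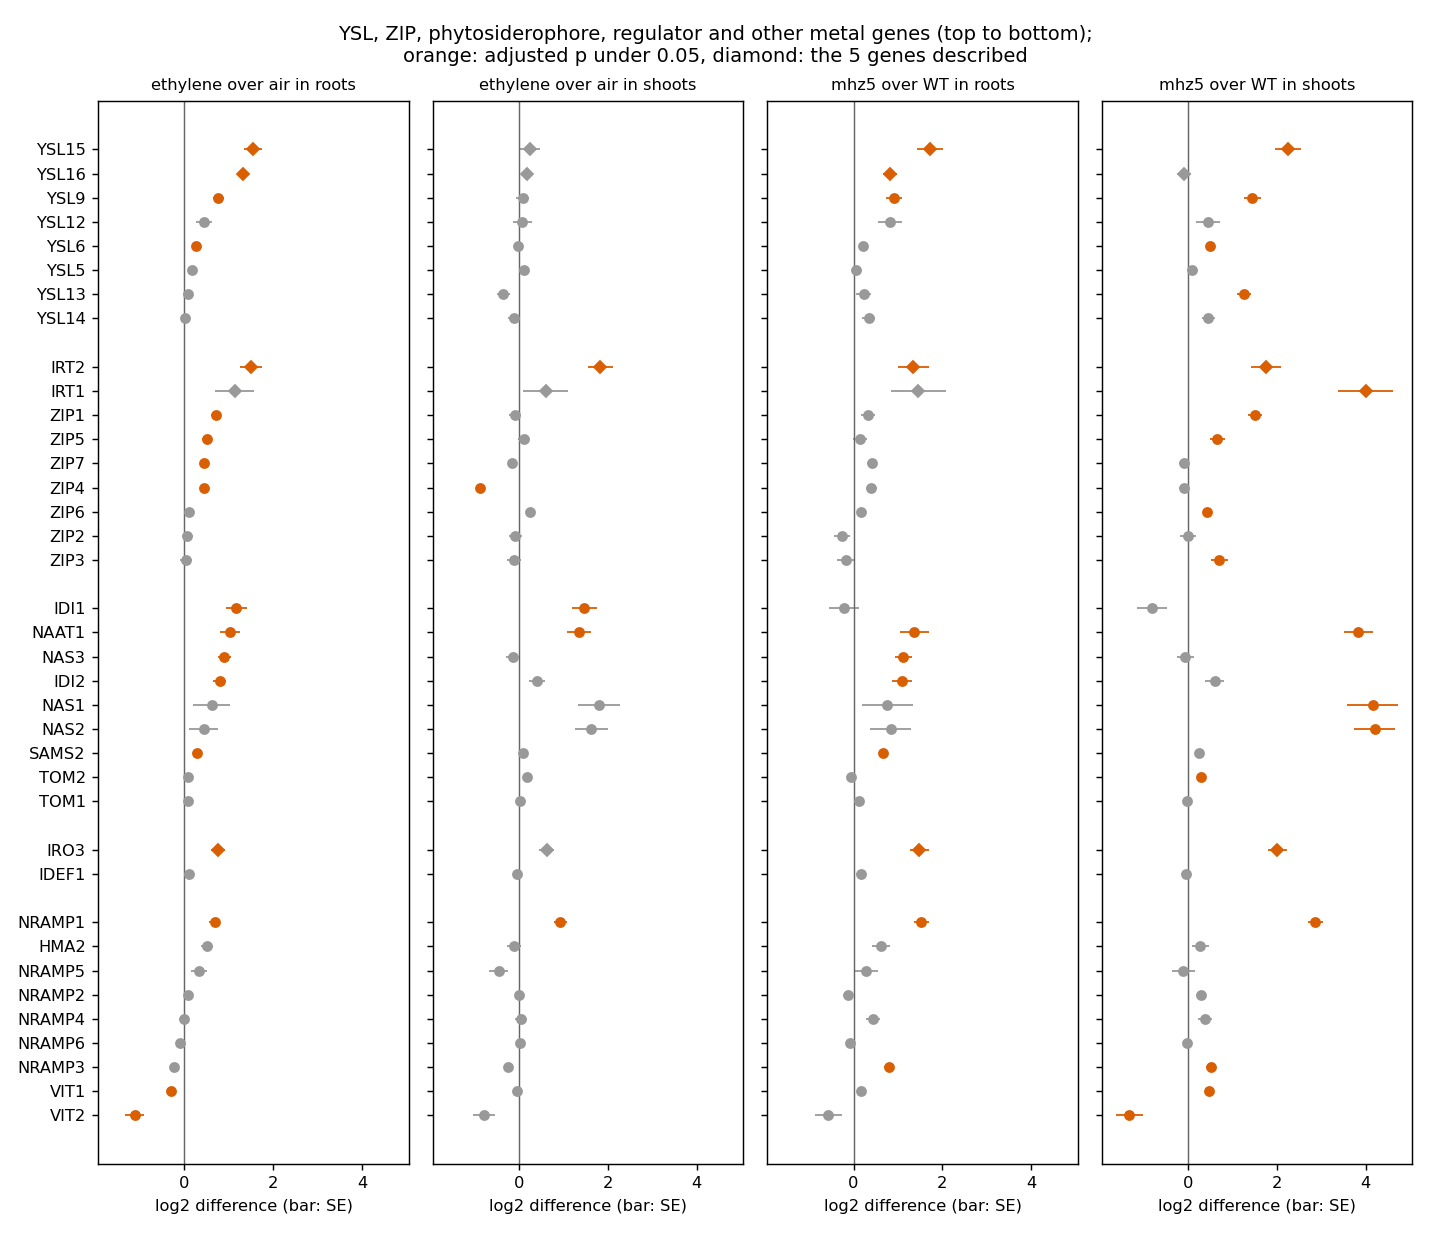
Differences of the tested YSL, ZIP, phytosiderophore, regulator and other metal genes on the log2(signal + 32) scale, with bars for the SE of the limma fit; orange marks an adjusted p under 0.05 and diamonds mark IRT1, IRT2, YSL15, YSL16 and IRO3. YSL15 (1.54) heads the YSL genes and IRT2 (1.50) the ZIP genes for ethylene in roots, and NAS1, NAS2 and IRT1 lie at 4.16, 4.21 and 4 for mhz5 shoots.

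Across the 14 arrays, after subtracting each tissue's mean, the 5 genes resembled one another to different degrees. The Pearson correlation was highest between YSL15 and IRO3 (0.909), then between IRT2 and IRO3 (0.866) and IRT1 and IRO3 (0.829), and lowest between IRT1 and YSL16 (0.369). These values describe 14 arrays that share genotypes and gases, among them the mhz5 ethylene arrays, which were the highest of their tissue for every gene. Among 2112 genes with an informative name, those most like IRO3 were NAAT1 (0.942), YSL9 (listed as osysl9, 0.931), OsRSH3 (0.917), NRAMP1 (0.914) and HSFA2D (0.909). Most like YSL15 were HSFA2D (0.955), the potassium transporter HAK5 (0.947), YSL9 (0.946), the methylthioribose kinase MTK1 (0.923) and IRO3. IRT1 was most like OsRSH3 (0.927), NRAMP1 (0.894), NAAT1 (0.884), the metallothionein MT4A (0.865) and NAS2 (0.857). IRT2 was most like MTK1, 20ox2 and IDI2 (each 0.887) and NAAT1 and NRAMP1 (each 0.88). The list for YSL16 shared no gene with the others and held CKX11 (0.933), the glutamine synthetase GLN1-2 (0.923), the copper transporter COPT7 (0.919), OsPIN5 (0.919) and the alcohol dehydrogenase Adh2 (0.903). Spearman coefficients of these 25 pairs were 0.802 to 0.965, and the Pearson coefficients without the 2 farthest arrays were 0.778 to 0.937.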

How the data were processed

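The authors deposited 1 linear intensity per probe set and array. MAS5 is the tool named, per the submitters' processing notes, with no version, and its settings were not stated there. Sorted, the deposited intensity values varied between arrays by a median of 2.43% at a given rank, so the arrays held nearly the same distribution. Of 57381 probe sets, 123 controls were left out. Factors of 3.87 to 4.10 brought each array to a mean of 500 after trimming a fraction of 0.02 at each end, and 32 was added before taking log2. Gene names came from the platform annotation, which gives 1 gene for 22436 probe sets, several for 95 and none for 34727, and all 17905 genes were found in the gene table. Each of the 5 genes had 1 such probe set. Probe sets of close paralogs (IRT1 and IRT2, the YSL and ZIP genes) may share transcripts. No probe or protein sequence was used here.

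Arrays of a tissue correlated with one another at 0.976 to 0.991 (Spearman) and those of different tissues at 0.914 to 0.929, and the number of arrays limits the precision. Tests came from 1 limma fit (limma 3.58.1, R 4.3.3) with 1 term for each of 7 genotype and tissue pairs and 1 ethylene term per tissue, variances moderated with a trend, and Benjamini-Hochberg adjustment over all 23186 probe sets at 0.05. Its residual degrees of freedom were 5. The residual SD had a median of 0.12 over probe sets, against 0.794 for IRT1, 0.431 for IRT2, 0.368 for YSL15, 0.188 for YSL16 and 0.267 for IRO3. The fit and the added response term below were tested on simulated data. Alternatives were pseudocounts of 1, 16 and 64, other filters, quantile normalization, no variance trend, 1 tissue alone, and leaving out arrays singly or in pairs of 1 genotype and tissue. Each genotype's ethylene response was tested against the others of its tissue by 1 added term, with 4 residual degrees of freedom.

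The 5 genes and all gene lists were chosen with earlier results of these data known. All 5 genes are described. Other genes came from 5 lists (YSL family, ZIP family, phytosiderophore synthesis and efflux, iron regulators, other metal genes) and were named when they passed in an ethylene comparison or to say which did not; those named for mhz5 were chosen after their values were seen. FDH was dropped from its list because the annotation gives that symbol to another enzyme. For each of the 5 genes, the 5 named genes with the highest tissue-centred Pearson correlation are given.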

Additional observations from a re-analysis of the deposited data

Results flagged for a closer look

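YSL16 differed in its ethylene effect between roots and shoots, by 1.12 on the log2(signal + 32) scale (roots minus shoots, SE 0.172, limma adjusted p = 0.0368), and in the difference between mhz5 and WT, which was larger in roots by 0.92 (SE 0.225, adjusted p = 0.0389). For IRT1 the ethylene effect was larger in mhz5 roots than in the other roots by 2.80 (SE 0.298, adjusted p = 0.0358). All 3 were picked out because the test of the difference itself passed the threshold. Each was lost in most settings that left out arrays, as given with the results.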

How the results depend on the processing

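Over settings other than leaving out arrays (pseudocount, filter, quantile normalization, variance trend, 1 tissue alone), 911 of 920 values kept their direction and side of the threshold, 9 calls were lost and 0 reversed. The lost calls were the larger ethylene effect on IRT1 in mhz5 roots (3 settings, given with the result), IRT2 in mhz5 over WT roots with a pseudocount of 1 (adjusted p = 0.0689) or 16 (0.0534), without the variance trend (0.0526) and with root arrays alone (0.0599), and both IRT2 and IRO3 in mhz5 over mhz4 shoots, where shoot arrays alone left 2 genes past the threshold instead of 4. Leaving out arrays kept 1753 of 1855 values, with 95 calls lost, 7 gained and 0 reversed; why was not tested, beyond the fewer arrays in the fit. The number of the 5 genes past the threshold was then 3 to 4 for ethylene in roots, 0 to 1 in shoots and 0 to 1 for the difference between them. It was 1 to 4 for mhz5 over WT in roots, 2 to 4 in shoots and 0 to 1 for the difference between them, and 0 to 1 for mhz4 over WT in roots and 0 to 1 in shoots. It was 0 in every setting for mhz1 over WT in roots and for mhz4 minus WT between the tissues, 0 to 1 for mhz5 over mhz4 in roots, 0 to 4 in shoots, and 4 to 5 for roots over shoots. Calls among all probe sets also became fewer in many of the settings that left out arrays. For the ethylene comparisons, leaving out 1 array or both of a pair is nearly the same setting, so these counts include near repeats. Both contrasts of mhz5 with mhz4 and both differences of a mutant effect between tissues were added after seeing the data. So were the 7 tests of one genotype's response and the leave-out counts of the other genes. No gene of the 5 had a second probe set, so that alternative gave no value, and a genotype cannot be compared without its arrays. Pairing by replicate number was not possible, because every group has the replicate number 1. The ethylene comparisons themselves compare the 2 arrays within each genotype and tissue. Signals under about 200, as for IRT1, IRT2 and YSL15 in several shoot arrays, limit the size of their differences.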
